A study of Mus musculus with 12 samples.

Results

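The antioxidant genes under the transcription factor NRF2 were followed here as 10 transcripts, chosen by gene symbol from the 47593 genes of the deposited table: Nfe2l2, which encodes NRF2 itself, its inhibitor Keap1, and the target genes Nqo1, Gclc, Gclm, Hmox1, Txnrd1, Srxn1, Slc7a11 and Gsr. All 10 were found, and all 10 had a mean of at least 1 TPM (a measure of transcripts per length, scaled to nearly the same total in every tumor), as did 16779 genes in all. Poly(A) RNA had been sequenced from 12 mammary tumors of 9 female MADM-mutant mice. These mice carried the MADM cassettes (MADM RG;GR alleles in the labels, mixed background) together with a floxed Brca1 allele and a p53 knockout allele on the same chromosome, and the MMTV-Cre transgene, which acts mainly in mammary epithelium. Recombination gives sparse GFP+ Brca1, p53-null cells among heterozygous cells, and tumors grow from the former. No treatment was given, no age is in the labels, and no normal gland was among the samples, so a level cannot be called raised or lowered against healthy tissue. In 7 mice 1 tumor was taken, tumors 3 and 4 shared a mouse, and tumors 10, 11 and 12 shared another. Tumors of one mouse were averaged on the log2(TPM + 1) scale before any mean, SD or test, so that n = 9 mice, and depth is unknown because TPM keeps no read number.

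NRF2 is held low in resting cells by KEAP1, an adaptor that hands it to a CUL3 ubiquitin ligase. Oxidants and electrophiles modify KEAP1, NRF2 then escapes degradation, and with a small MAF partner it binds antioxidant response elements near genes for glutathione synthesis, thioredoxin recycling, NADPH supply, quinone reduction and heme breakdown. This control acts largely on the protein, so the transcript of Nfe2l2 is not a measure of NRF2 activity. BRCA1 is known as a partner that stabilizes NRF2, and mammary tumors are one of the settings in which the pathway has been studied.

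Tumors 2, 8 and 9 stood apart from the rest in markers of cell type. The median over 7 epithelial genes (Cdh1, Epcam, Cldn3, Cldn4, Cldn7, Krt8, Krt18) was 0.262 TPM in tumor 2 and 3.00 TPM in tumor 8, against 320 to 597 TPM in the other 10 tumors. The median over 5 B lymphocyte genes was 609 TPM in tumor 2 and 40.3 TPM in tumor 9, against 0 to 2.80 TPM elsewhere. Tumors 2 and 8, labelled as mammary tumors like the rest, were thus nearly without the defining epithelial markers. The median over 6 macrophage genes ran from 30.5 TPM (tumor 2) to 220 TPM (tumor 8). The medians of the other lists ran from 0.411 TPM (tumor 2) to 14.2 TPM (tumor 9) for T lymphocyte genes, 23.3 TPM (tumor 12) to 227 TPM (tumor 4) for erythroid genes, 6.67 TPM (tumor 2) to 285 TPM (tumor 4) for fibroblast genes, 2.41 TPM (tumor 2) to 33.2 TPM (tumor 8) for endothelial genes, 0 to 15.9 TPM (tumor 4) for adipocyte genes and 0.0094 TPM (tumor 7) to 77.4 TPM (tumor 3) for skeletal muscle genes. In whole tumors, fewer cells of a type and less RNA per cell cannot be told apart. Tumor 2 was the lowest of the 12 tumors in 6 of the 10 genes (Nfe2l2, Nqo1, Gclm, Txnrd1, Srxn1, Gsr), a count chosen after the values were seen. Of all 16779 genes, 28.9% were lowest in tumor 2. The main contrasts, correlations of the 10 genes with a reference and sister-tumor comparison are therefore given with and without tumor 2, and the part of its cell content in them was not tested.

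Nfe2l2 (ENSMUSG00000015839, chr2:75675513-75704641 of GRCm38, minus strand) had 21.9 TPM in tumor 2, a median of 98.3 TPM and 165 TPM in tumor 3. Without tumor 2 it stayed at 75.8 to 165 TPM, a 2.18-fold range, and its mean was 112 ± 32.1 TPM (SD, 8 mice) against 102 ± 42.4 TPM (SD, n = 9 mice) with it. Tumors 1, 3, 4, 7 and 8 formed the upper end at 134 to 165 TPM, and tumors 5, 6 and 9 stood at 75.8 to 81.7 TPM. Keap1 (ENSMUSG00000003308, chr9:21229730-21239361, minus strand) ranged from 31.2 TPM in tumor 6 to 64.5 TPM in tumor 9, with a median of 45.7 TPM and a mean of 48.1 ± 10.7 TPM (SD, n = 9 mice). It varied least of the 10 genes, with an SD of 0.32 on the log2(TPM + 1) scale, where the median SD over all genes tested was 0.57. Exons of Keap1 overlap those of Gm16754, an antisense gene on the opposite strand, over 2550 bases. Gm16754 reached at most 13.7 TPM, and because no strand setting of the quantification is given in the sources used here, the share of reads between them is uncertain.

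The transcript of the regulator exceeded that of its inhibitor in 11 of 12 tumors. The ratio of Nfe2l2 to Keap1 TPM was 0.565 in tumor 2, 2.31 at the median and 3.91 in tumor 3. Over mice the difference in log2(TPM + 1) was 0.93 ± 0.80 (SD, n = 9 mice), positive in 8 and negative in 1. In a two-sided exact permutation test that flips the sign of each mouse this gave p = 0.0156, or 0.0195 after Benjamini-Hochberg adjustment over the 5 contrasts made between paired genes. Without tumor 2 it was 1.14 ± 0.50 and positive in every remaining mouse (exact permutation test over 8 mice, p = 0.0078). The smallest two-sided p this test can give with 9 mice is 0.0039.

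**Figure D1:**
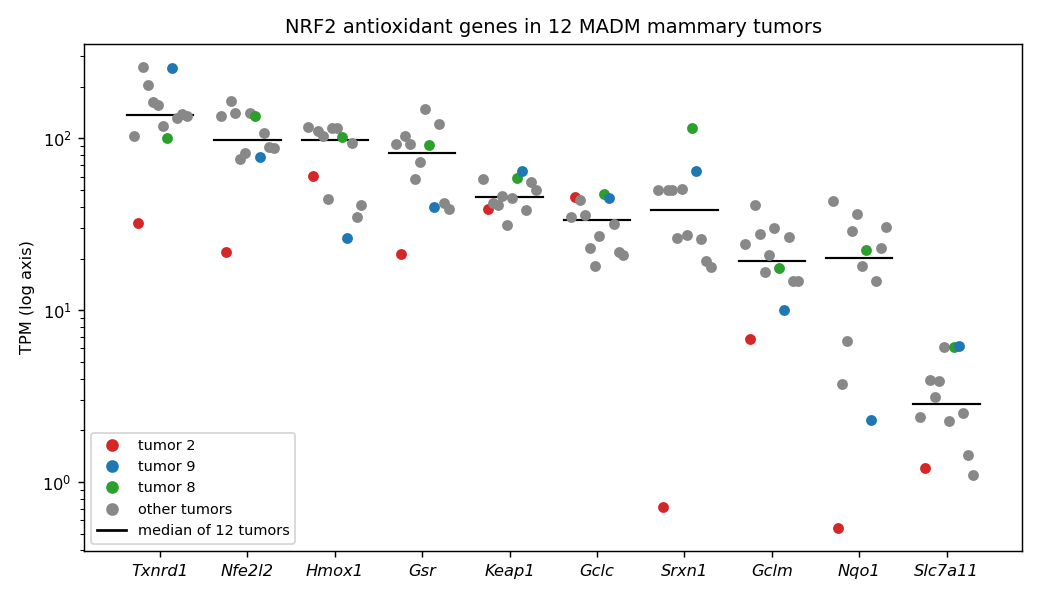
TPM (log axis) of the 10 genes, ordered from left to right by mean log2(TPM + 1), with 1 point per tumor and a black line at the median of the 12 tumors. Tumor 2 (red) lies below the other tumors in Nfe2l2, Txnrd1, Srxn1, Gsr, Gclm and Nqo1, at 0.712 TPM for Srxn1, but among the highest in Gclc, at 45.8 TPM.

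The first step of glutathione synthesis is made by glutamate-cysteine ligase, whose catalytic subunit is encoded by Gclc and whose modifier subunit by Gclm. Gclc (ENSMUSG00000032350, chr9:77754535-77794485, plus strand) had 18.2 TPM in tumor 6, a median of 33.4 TPM and 47.2 TPM in tumor 8, with a mean of 34.0 ± 11.0 TPM (SD, n = 9 mice). Gclm (ENSMUSG00000028124, chr3:122245557-122270732, plus strand) had 6.84 TPM in tumor 2, a median of 19.3 TPM and 41.1 TPM in tumor 3, with a mean of 19.97 ± 8.80 TPM (SD, n = 9 mice). Tumors 2 and 9, the lowest in Gclm at 6.84 and 10.1 TPM, were among the 3 highest in Gclc at 45.8 and 45.0 TPM. The next lowest in Gclm, tumors 11, 12 and 5 at 14.7 to 16.6 TPM, were low in Gclc too, at 20.9 to 22.9 TPM. The ratio of Gclc to Gclm was 0.866 in tumor 6, 1.40 at the median, 4.46 in tumor 9 and 6.70 in tumor 2, and it exceeded 1 in 10 of 12 tumors. The difference was 0.80 ± 0.98 in log2(TPM + 1) (SD, n = 9 mice), positive in 7 and negative in 2 (same exact permutation test, p = 0.0195, adjusted p = 0.0195). Without tumor 2 it was 0.58 ± 0.77 (exact permutation test over 8 mice, p = 0.0391), and without the mice of tumors 2 and 9 it was 0.37 (exact permutation test over 7 mice, p = 0.0781). An exon of Gclm overlaps that of Gm17494, a transcript on the opposite strand, over 296 bases, and Gm17494 stood at 155 TPM in tumor 1 to 360 TPM in tumor 2. Its r with Gclm was -0.37 over 9 mice (rho = -0.28, exact permutation p = 0.32), and how reads were shared between them was not tested. A same-strand pseudogene, Gm6061, overlaps Gclm over 244 bases and never exceeded 1.33 TPM.

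Slc7a11 (ENSMUSG00000027737, chr3:49892526-50443614, minus strand) encodes xCT, the light chain of the cystine/glutamate exchanger that brings in cystine for glutathione. It was the lowest of the 10 genes, from 1.099 TPM in tumor 12 to 6.18 TPM in tumor 9, with a median of 2.84 TPM and a mean of 3.70 ± 1.99 TPM (SD, n = 9 mice). Tumors 6, 8 and 9 held the top at 6.09 to 6.18 TPM, while tumors 2, 11 and 12 were at 1.44 TPM or less. Its partner Slc3a2 (chr19:8706882-8723369, minus strand), the heavy chain that also serves other amino acid transporters, ran from 67.1 TPM in tumor 2 to 308 TPM in tumor 5. The light chain transcript was between 0.00513 (tumor 12) and 0.0369 (tumor 9) of the heavy chain transcript, with a median ratio of 0.0155. The difference of -5.45 ± 0.67 in log2(TPM + 1) was negative in 9 of 9 mice (same exact permutation test, p = 0.0039, adjusted p = 0.0098), and it was -5.51 ± 0.69 without tumor 2 (exact permutation test over 8 mice, p = 0.0078).

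Gsr (ENSMUSG00000031584, chr8:33652523-33698163, plus strand) encodes glutathione reductase, which returns oxidized glutathione to its reduced form with NADPH. It ran from 21.2 TPM in tumor 2 to 149 TPM in tumor 7, with a median of 82.5 TPM and a mean of 76.7 ± 37.1 TPM (SD, n = 9 mice). Tumors 7, 10 and 3 were the highest, and tumors 9, 11 and 12 stood at 38.9 to 42.1 TPM. Txnrd1 (ENSMUSG00000020250, chr10:82833951-82897712, plus strand), the cytosolic thioredoxin reductase, was the most abundant of the 10 genes. It had 32.4 TPM in tumor 2 and 101 to 260 TPM in the other 11, with a median of 137 TPM and a mean of 144 ± 68.4 TPM (SD, n = 9 mice). Tumors 3, 9 and 4 were the highest in Txnrd1 at 260, 255 and 204 TPM. Of these NADPH-dependent reductases, Gsr was the lower in 11 of 12 tumors, with a ratio to Txnrd1 of 0.156 in tumor 9, 0.460 at the median and 1.26 in tumor 7. The difference was -0.91 ± 0.90 in log2(TPM + 1) (SD, n = 9 mice), negative in 8 and positive in 1 (same exact permutation test, p = 0.0195, adjusted p = 0.0195). It was -0.95 ± 0.95 without tumor 2 (exact permutation test over 8 mice, p = 0.0391) and -0.71 without the mice of tumors 2 and 9 (exact permutation test over 7 mice, p = 0.0781).

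Srxn1 (ENSMUSG00000032802, chr2:152105516-152111376, plus strand) encodes sulfiredoxin, which repairs over-oxidized peroxiredoxins. It had 0.712 TPM in tumor 2, a median of 38.5 TPM and 115 TPM in tumor 8, with a mean of 45.1 ± 32.7 TPM (SD, n = 9 mice). The range was 161-fold with tumor 2 and 6.45-fold without it. Tumors 11 and 12, of one mouse, were the next lowest at 19.4 and 17.8 TPM.

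Nqo1 (ENSMUSG00000003849, chr8:107388225-107403206, minus strand) encodes NAD(P)H quinone dehydrogenase, a widely used readout of the pathway. It had the largest fold range of the 10 genes outside tumor 2. Its values were 0.541 TPM in tumor 2, 2.29 TPM in tumor 9, 3.73 and 6.59 TPM in tumors 3 and 4, and 14.8 to 43.1 TPM in the other 8 tumors, with tumor 1 the highest. The median was 20.3 TPM and the mean 19.96 ± 15.1 TPM (SD, n = 9 mice), and the SD of 1.70 in log2(TPM + 1) was larger than that of 94.1% of all genes tested. Without tumor 2 the range was still 18.8-fold. Tumors 3 and 4 were low in Nqo1 and at the same time among the 3 highest in Nfe2l2.

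Hmox1 (ENSMUSG00000005413, chr8:75093621-75100589, plus strand) encodes heme oxygenase 1, which opens heme to biliverdin, iron and carbon monoxide and is abundant in macrophages. It had 26.2 TPM in tumor 9, a median of 98.5 TPM and 116 TPM in tumor 1, with a mean of 82.6 ± 35.5 TPM (SD, n = 9 mice). Its values left a gap, with tumors 5, 9, 11 and 12 at 26.2 to 44.2 TPM, tumor 2 at 60.6 TPM and the other 7 at 94.6 to 116 TPM. Nqo1 was below Hmox1 in each of the 12 tumors, at 0.00893 of it in tumor 2, 0.188 at the median and 0.751 in tumor 12. The difference was -2.46 ± 1.52 in log2(TPM + 1), negative in 9 of 9 mice (same exact permutation test, p = 0.0039, adjusted p = 0.0098), and -2.10 ± 1.14 without tumor 2 (exact permutation test over 8 mice, p = 0.0078).

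In order of mean log2(TPM + 1), Txnrd1 (6.99) was followed by Nfe2l2 (6.51), Hmox1 (6.22), Gsr (6.08), Keap1 (5.58), Gclc (5.05), Srxn1 (4.97), Gclm (4.25), Nqo1 (3.76) and Slc7a11 (2.11). Of the 9 steps between neighbours in this order, Keap1 to Gclc (0.53, SD 0.41, Keap1 higher in 8 of 9 mice) was larger than its own SD over mice, and the other 8 were not.

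**Figure D2:**
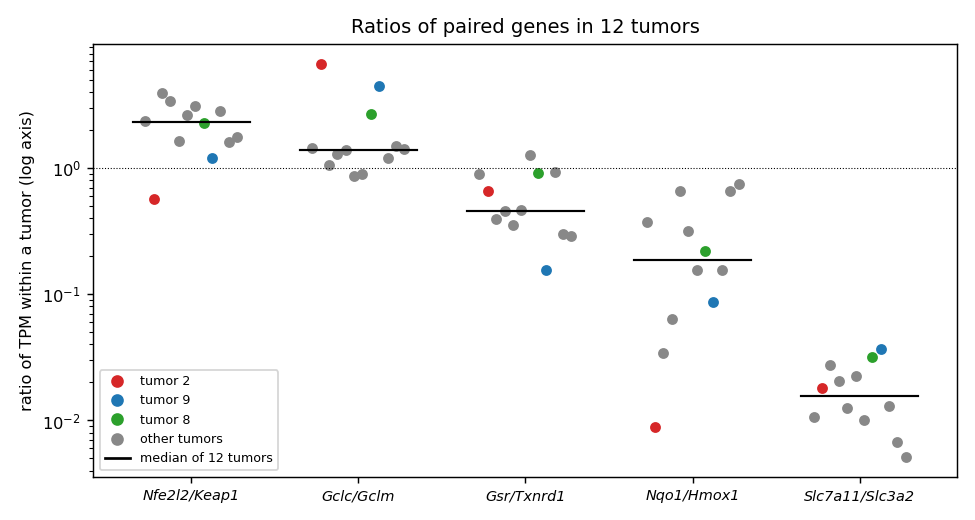
Ratio of the TPM of paired genes within each tumor (log axis), with 1 point per tumor, a black line at the median of the 12 tumors and a dotted line at a ratio of 1. Nqo1 is below Hmox1 and Slc7a11 below Slc3a2 in each tumor, whereas the Gclc to Gclm ratio is highest in tumors 2 (6.70) and 9 (4.46).

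Promoter sequence of these genes was searched for the element that NRF2 binds. RefSeq promoters of GRCm38.p6, each 250 bases before to 50 bases after a start, were held for 7 of the 10 genes with 9 promoters (3 of them for Txnrd1), and Gclc, Hmox1 and Gsr had no entry. The core of the antioxidant response element, TGACNNNGC, was searched on both strands. It was present for Nfe2l2, Gclm, Srxn1 and 1 of the 3 Txnrd1 promoters, that is 4 of 7 genes, against 14% of all 27025 genes and 12.4% of all 32851 promoters in the table. No match was found in the windows of Nqo1, Keap1 and Slc7a11, which says only that these letters are not there. The AP-1 motif TGACTCA, held by 5.2% of all promoters, was found in the Srxn1 promoter at 2 places, neither overlapping the response element core. The matches before a start are shown 5′ to 3′ on the gene's strand with the core in capitals. That of Nfe2l2 (chr2:75704875-75704913, minus strand) begins 240 bases before the start and reads on the gene's strand, that of Gclm (chr3:122245403-122245451, plus strand) begins 134 bases before it on the opposite strand, and that of Txnrd1 (chr10:82859094-82859142, plus strand) begins 92 bases before it on the opposite strand.
Nfe2l2: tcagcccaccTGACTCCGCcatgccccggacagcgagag
Gclm: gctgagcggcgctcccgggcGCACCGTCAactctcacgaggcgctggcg
Txnrd1: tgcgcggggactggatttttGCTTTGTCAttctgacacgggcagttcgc
A match describes the sequence and is not a measured binding site. The 3 targets that hold a core differed in their relation to Nfe2l2, as described next: the r of Gclm passed with and without tumor 2, that of Srxn1 only with it, and that of Txnrd1 in neither setting. Whether the core has a part in this was not tested.

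Which of the genes vary with the transcript of the regulator itself was asked by correlating each with Nfe2l2 over the 9 mice and running an exact permutation test over all orders of the mice for every gene tested. Gsr followed Nfe2l2 most closely, with r = 0.92 (exact permutation p = 0.000504, adjusted p = 0.125 over all genes) and rho = 0.95 (exact permutation p = 0.000353). Gclm was next, with r = 0.87 (exact permutation p = 0.00139, adjusted p = 0.13) and rho = 0.92 (exact permutation p = 0.00131). Both relations remained without tumor 2, at r = 0.84 for Gsr (exact permutation p = 0.009, 8 mice) and r = 0.76 for Gclm (exact permutation p = 0.0256, 8 mice). Without tumors 2 and 9, Gsr passed at r = 0.81 (exact permutation p = 0.025, 7 mice) and Gclm, at r = 0.71, did not (exact permutation p = 0.0825, 7 mice). After leaving out the mice farthest from the median of Nfe2l2 (tumor 2, and tumors 3 and 4), r was 0.85 for Gsr (exact permutation p = 0.0129, 7 mice) and 0.67 for Gclm (exact permutation p = 0.0812, 7 mice). Srxn1 had r = 0.85 (exact permutation p = 0.0329, adjusted p = 0.227), but rho was 0.28 (exact permutation p = 0.46) and r without tumor 2 was 0.24 (exact permutation p = 0.58), so this relation rested on that tumor. Over all mice left out in turn, tumor 8 among them, r stayed at 0.84 to 0.95 for Gsr and 0.76 to 0.93 for Gclm.

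These 3 of 9 genes stood against 12.4% of all genes with a positive r past the unadjusted threshold of 0.05, and without tumor 2 the count was 2 of 9 against 5.73%. After adjustment over all genes none of the 9 passed, nor did any gene of the table. The median r of the 9 genes was 0.62, against 0.13 over all genes tested, and without tumor 2 it was 0.24 against 0.07. Hmox1 had r = 0.45 (exact permutation p = 0.22) with rho = 0.67 (exact permutation p = 0.0589), and r = 0.73 without tumor 2 (exact permutation p = 0.0556). Nqo1 had r = 0.62 (exact permutation p = 0.0722) and rho = 0.18 (exact permutation p = 0.64), which became r = 0.02 without tumor 2 (exact permutation p = 0.94). Txnrd1 turned from r = 0.64 (exact permutation p = 0.0986) to -0.41 without tumor 2 (exact permutation p = 0.31), and to -0.85 without tumors 2, 3 and 4 (exact permutation p = 0.00952). The last of these rests on 7 mice and on a direction that changed with 1 tumor. For Slc7a11 (r = 0.36, rho = -0.03), Keap1 (r = 0.33, rho = 0.07) and Gclc (r = -0.14, rho = 0.03) the exact permutation p of r was 0.37, 0.39 and 0.78. Without tumor 2 their r was -0.34, 0.13 and 0.46 (exact permutation p of 0.39, 0.76 and 0.25).

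**Figure D3:**
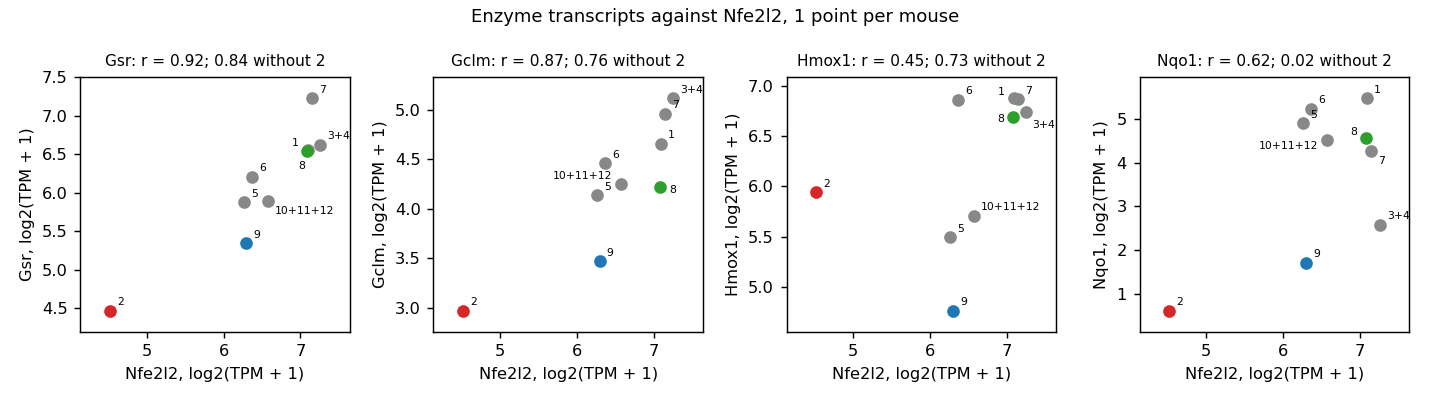
Log2(TPM + 1) of Gsr, Gclm, Hmox1 and Nqo1 against that of Nfe2l2, with 1 point per mouse labelled by its tumors, tumor 2 in red, tumor 9 in blue and tumor 8 in green. Gsr and Gclm climb with Nfe2l2 also among the 8 mice without tumor 2 (r = 0.84 and 0.76), whereas Nqo1 shows no such slope there (r = 0.02).

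With the inhibitor Keap1 as reference, 0 of the other 9 genes passed in either direction at an unadjusted exact permutation p of 0.05, where 2% of all genes had a positive and 3.42% a negative r past it. The r with Keap1 ran from -0.36 for Hmox1 to 0.57 for Gclc, and without tumor 2 from -0.49 for Gclm to 0.78 for Gclc. Without tumor 2, Gclc had r = 0.78 with Keap1 (exact permutation p = 0.0217, 8 mice), and it was the 1 of 9 to pass there, against 2.09% of all genes with a positive r. When tumors 6 and 9, the mice farthest from the median of Keap1, were left out instead, Gclc was at r = 0.07 (exact permutation p = 0.85, 7 mice). In those 7 mice Nqo1 (r = 0.79, exact permutation p = 0.0399) and Srxn1 (r = 0.73, exact permutation p = 0.0448) passed with Keap1, from r = 0.0016 and 0.42 over 9 mice. The share of all genes in that setting was not computed. With Nqo1 as reference, Gsr alone passed, at r = 0.68 (exact permutation p = 0.0434, adjusted p = 0.241, rho = 0.33), so 1 of 9 against 12.9% of all genes with a positive r. This relation was 0.33 without tumor 2 (exact permutation p = 0.41) and -0.31 without tumors 2 and 9 (exact permutation p = 0.49). The r of Nqo1 with Txnrd1 was 0.27 over 9 mice (exact permutation p = 0.49, rho = -0.08), -0.80 without tumor 2 (exact permutation p = 0.0204, 8 mice) and -0.65 without tumors 2 and 9 (exact permutation p = 0.12, 7 mice). In the 8 mice without tumor 2, Txnrd1 was the 1 of 9 genes with a negative r past the threshold with Nqo1, against 5.38% of all genes, and 0 of 9 had a positive one, against 6.94%.

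Pairwise, the 10 genes did not form 1 block. Of 45 pairs, 33 had a positive r over 9 mice, with a median of 0.36 and a range of -0.65 to 0.94, and the genes' median r with all genes tested was 0.05. Without tumor 2, 23 of 45 were positive and the median fell to 0.0041. The pairs named here were picked after the values were seen, and their r are given as a description. With Nfe2l2, Gsr and Gclm passed without tumor 2 and Hmox1 (r = 0.73, exact permutation p = 0.0556) did not. Gsr, Gclm and Hmox1 stayed close to each other in that setting. Their pairwise r were 0.94 for Gclm with Gsr and 0.68 each for Hmox1 with Gclm and with Gsr, and without tumor 2 they were 0.87, 0.84 and 0.88. The same pairs were at 0.76, 0.65 and 0.77 without tumors 2 and 9. In each of these 3 genes the 5 lowest tumors were tumors 2, 5, 9, 11 and 12, of which tumors 11 and 12 shared a mouse. This overlap was noticed after the values were seen, and how many of all genes share it was not counted. Srxn1 and Slc7a11, the sulfiredoxin and the cystine carrier, had r = 0.77 over 9 mice, 0.75 without tumor 2 and 0.73 without tumors 2 and 9. In the same settings r was 0.57, 0.78 and 0.71 for Keap1 with Gclc, and -0.08, 0.68 and 0.65 for Gclc with Srxn1. Txnrd1 had r = 0.76 with Srxn1 and 0.63 with Slc7a11 over 9 mice, and -0.01 and 0.35 without tumor 2. The lowest r over 9 mice was that of Gclc with Nqo1, at -0.65, and at -0.58 without tumor 2.

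**Figure D4:**
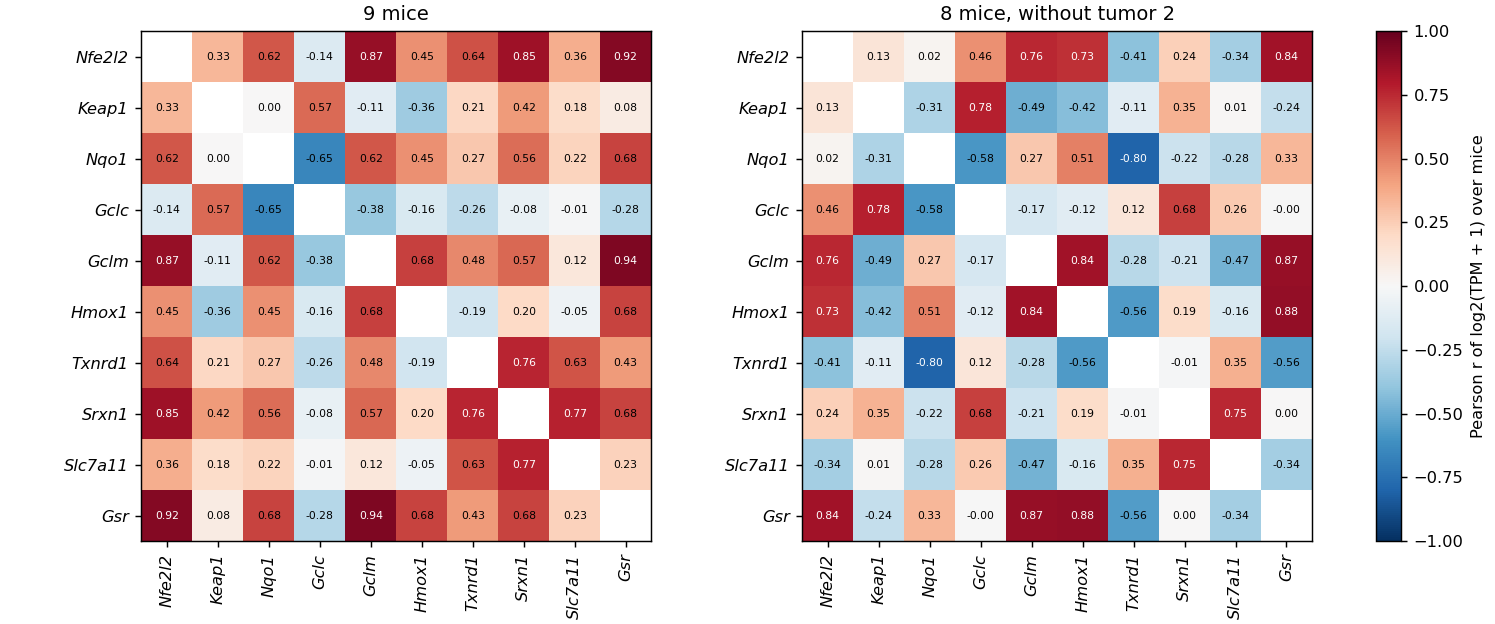
Pearson r of log2(TPM + 1) over mice for each pair of the 10 genes, over 9 mice on the left and over 8 mice without tumor 2 on the right, from -1 (blue) to 1 (red). The mostly red matrix on the left (33 of 45 pairs positive) becomes mixed on the right (23 of 45), where Gsr, Gclm and Hmox1 keep r of 0.84 to 0.88 with each other.

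The genes were also set against the median level of the markers of epithelial cells and macrophages, which differed widely between tumors. With the median of the epithelial list 1 gene of 10 passed, near the 9.77% of all genes with a positive r past the unadjusted threshold. For this gene, Txnrd1, r was 0.81 (exact permutation p = 0.00316, adjusted p = 0.206, rho = 0.70). Without tumor 2 it was 0.49 (exact permutation p = 0.22), and without tumors 2 and 8, the mice farthest from the list's median, 0.40 (exact permutation p = 0.35, 7 mice). Gclc changed sign with the epithelial list, from r = -0.54 over 9 mice (exact permutation p = 0.15) to 0.84 without tumors 2 and 8 (exact permutation p = 0.0302). With the macrophage list 3 of 10 genes passed, against 8.9% of all genes. These were Srxn1 with r = 0.90 (exact permutation p = 0.00685, adjusted p = 0.206), Nfe2l2 with r = 0.81 (exact permutation p = 0.0354, adjusted p = 0.29) and Slc7a11 with r = 0.65 (exact permutation p = 0.0383, adjusted p = 0.293). None passed without tumor 2, where r was 0.60 (exact permutation p = 0.11), 0.24 (exact permutation p = 0.61) and 0.41 (exact permutation p = 0.33). In the 7 mice without tumors 2 and 8 the same r were 0.07, -0.02 and 0.12. Hmox1, known for its high level in macrophages, had r = 0.08 with the macrophage list (exact permutation p = 0.84, rho = -0.28).

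Whether tumors of one mouse resembled each other more than tumors of different mice was asked next. Over the 4 same-mouse pairs against the 62 other pairs, Txnrd1 differed by 0.13 against 0.87 on the log2(TPM + 1) scale (exact permutation of the animal labels, one-sided, p = 0.00316). Srxn1 differed by 0.27 against 1.61 (same exact permutation, p = 0.0158) and Nfe2l2 by 0.20 against 0.81 (same exact permutation, p = 0.0433). These 3 of 10 genes compare with 26.3% of all genes, and after adjustment over all genes none passed (adjusted p = 0.135 for Txnrd1). All 3 had their lowest value in tumor 2, which is part of the other pairs only. Without tumor 2, Txnrd1 (0.13 against 0.58, exact permutation p = 0.00541) and Srxn1 (0.27 against 0.97, exact permutation p = 0.0271) passed and Nfe2l2 (0.20 against 0.50, exact permutation p = 0.0742) did not, that is 2 of 10 against 21.9% of all genes. It was also 2 of 10 without tumors 2 and 9, against 18.6%. Gsr (0.84 against 0.95, exact permutation p = 0.40) and Hmox1 (0.74 against 0.88, exact permutation p = 0.30) did not pass, nor did they without tumor 2 (0.84 against 0.77, exact permutation p = 0.58, and 0.74 against 0.90, exact permutation p = 0.30). Within the trio of tumors 10, 11 and 12, tumor 10 was apart from the others in these genes. Gsr stood at 121 TPM in tumor 10 and at 42.1 and 38.9 TPM in tumors 11 and 12, 2.98 times their mean. Hmox1 stood at 94.6 TPM in tumor 10 against 34.7 and 40.8 TPM, 2.51 times their mean. The same ratio of tumor 10 to the mean of its sisters was 1.22 for Nfe2l2, 1.81 for Gclm, 2.00 for Slc7a11, 0.954 for Txnrd1 and 0.551 for Nqo1. Gsr and Hmox1 were 2 of the 10 genes at least 1 log2 unit above both sisters, as were 2.44% of all genes, a comparison chosen after the values were seen. The median of the macrophage list was 142 TPM in tumor 10 against 76.4 and 77.5 TPM in tumors 11 and 12, and its part in this difference was not tested. Tumors 3 and 4 were closer, with ratios of 0.988 to 1.28 in 8 of the genes, 1.49 for Gclm and 0.566 for Nqo1.

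**Figure D5:**
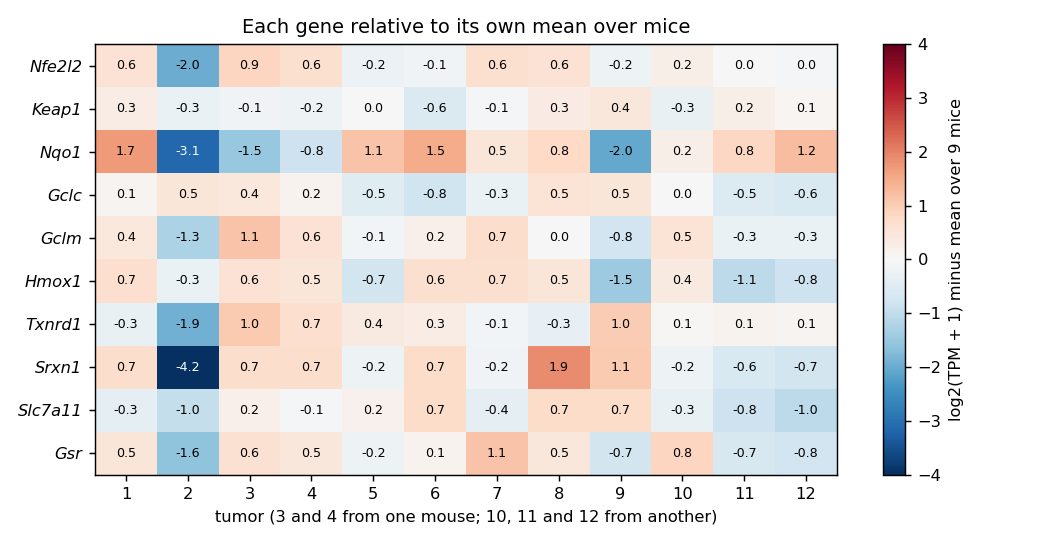
Log2(TPM + 1) of each gene in each tumor minus the gene's mean over 9 mice, from -4 (blue) to 4 (red), with the value in each cell. Tumor 2 is below the mean in every gene but Gclc, most of all in Srxn1 and Nqo1, and tumor 10 differs from tumors 11 and 12 in Gsr and Hmox1.

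The wider pathway was read through 46 further genes in 6 groups by role, a list written with earlier results of these data known. With Nfe2l2, 14 of the 46 had a positive and 1 a negative r at an unadjusted exact permutation p under 0.05, with a median r of 0.55 and none past adjustment over all genes. Of all genes, 12.4% had such a positive and 7.89% such a negative r. Without tumor 2 the counts were 5 and 1, where 5.73% and 4% of all genes passed. Without tumors 2 and 9, r with Nfe2l2 was 0.84 for Txnrd2 (exact permutation p = 0.0351), 0.87 for Hmox2 (exact permutation p = 0.0129), 0.75 for Prdx6 (exact permutation p = 0.0591), 0.69 for Osgin1 (exact permutation p = 0.0954) and 0.66 for Ephx1 (exact permutation p = 0.12), the 5 genes described below that passed with a positive r without tumor 2. Among 8 regulators 3 passed, the small MAF partners Mafk (r = 0.90), Maff (r = 0.88) and Mafg (r = 0.85), and none of the regulators did without tumor 2. Sqstm1, the autophagy receptor p62 that can draw KEAP1 away, was the most abundant regulator at 304 ± 193 TPM (SD, n = 9 mice), and Bach1, a repressor at the same elements, the least at 28.0 ± 10.1 TPM. Maff had the largest spread of this group, from 2.67 TPM in tumor 2 to 71.2 TPM in tumor 1.

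Among 11 glutathione genes, Gss (glutathione synthetase, r = 0.79) and Abcc1 (an exporter of conjugates, r = 0.82) passed with Nfe2l2, and neither did without tumor 2. Gpx4, the lipid hydroperoxide peroxidase, had r = -0.85 with Nfe2l2 in that setting (exact permutation p = 0.0163, 8 mice) but r = 0.04 over 9 mice. Without tumors 2 and 9, Gpx4 was at -0.91 (exact permutation p = 0.00913, 7 mice) and Slc3a2 at -0.79 (exact permutation p = 0.0274, 7 mice), where Slc3a2 had r = 0.65 over 9 mice (exact permutation p = 0.0999). Gpx1 was the most abundant at 487 ± 151 TPM and Gsta4 the least at 7.25 ± 9.52 TPM, with a median of 2.8 TPM and 28.3 TPM in tumor 8. Gpx2, a peroxidase of epithelial cells, was the most variable, listed at 0 in tumors 2 and 8 and at 1109 TPM in tumor 3 with a median of 98.4 TPM.

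Among 7 thioredoxin genes, Txnrd2 (the mitochondrial reductase, r = 0.89), Prdx6 (a peroxiredoxin, r = 0.79) and Txn1 (thioredoxin, r = 0.72) passed with a positive r and Txnrd3 with a negative one (r = -0.89). Txnrd2 and Prdx6 remained without tumor 2, at r = 0.84 (exact permutation p = 0.0143) and 0.79 (exact permutation p = 0.0229). Txnrd3 was the lowest in level and the most variable of the group, from 3.04 TPM in tumor 8 to 30.2 TPM in tumor 2, and was the 1 gene of 46 to pass with Keap1 over 9 mice (r = -0.69, exact permutation p = 0.038), where 3.42% of all genes had a negative and 2% a positive r past the threshold. It also passed without tumor 2 (r = -0.83, exact permutation p = 0.015) and without tumors 6 and 9 (r = -0.74, exact permutation p = 0.0204). In that last setting 4 other genes of the 46 passed with a positive r, namely Gsto1 (r = 0.97), Akr1b8 (r = 0.86), Prdx1 (r = 0.77) and Abcc1 (r = 0.76). Without tumors 2 and 9, Txnrd3 passed with Keap1 at r = -0.92 (exact permutation p = 0.00893, 7 mice). So did Blvra (r = -0.95, exact permutation p = 0.00159), Txnip (r = -0.83, exact permutation p = 0.0194) and Akr1b8 (r = 0.86, exact permutation p = 0.0143). The share of all genes was not computed in either setting of 7 mice. Prdx1 was the most abundant of the thioredoxin genes, at 559 ± 244 TPM (SD, n = 9 mice).

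Among 6 NADPH genes, Me1 (malic enzyme, r = 0.86) and Pgd (6-phosphogluconate dehydrogenase, r = 0.76) passed with Nfe2l2, neither without tumor 2. Me1 had the lowest level and widest spread of its group, from 0.225 TPM in tumor 2 to 104 TPM in tumor 8, and Taldo1 the highest level at 269 ± 103 TPM. Among 7 detoxification genes, Osgin1 (r = 0.94), Akr1b8 (r = 0.84) and Ugdh (r = 0.68) passed, and Osgin1, an oxidative stress-induced growth inhibitor, also without tumor 2 (r = 0.74, exact permutation p = 0.0181). Ephx1, an epoxide hydrolase, had r = -0.55 over 9 mice (exact permutation p = 0.16) and 0.67 without tumor 2 (exact permutation p = 0.0307). Akr1b8, an aldo-keto reductase, was the highest and most variable, from 2.37 TPM in tumor 2 to 461 TPM in tumor 8, and Cbr3 the lowest at 9.44 ± 9.31 TPM. Among 7 heme and iron genes, Hmox2, the constitutive heme oxygenase, passed at r = 0.66 and at 0.88 without tumor 2 (exact permutation p = 0.0041), although it varied little, at 56.8 ± 6.08 TPM (SD, n = 9 mice). Fth1, the ferritin heavy chain, was the most abundant and most variable, from 621 TPM in tumor 2 to 10257 TPM in tumor 6, and the iron exporter Slc40a1 the lowest at 14.6 ± 6.86 TPM.

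With Nqo1 as reference, 16 of the 46 passed with a positive r and none with a negative one, against 12.9% and 6.63% of all genes. Without tumor 2 the counts were 6 and 3, against 6.94% and 5.38%. The 6 were Gsto1 (a glutathione transferase, r = 0.87, and 0.86 without tumor 2), Prdx1 (0.88 and 0.84, rho = 0.97), Gss (0.90 and 0.81), Slc3a2 (0.88 and 0.77), Me1 (0.86 and 0.76) and Ugdh (0.82 and 0.71). Of these, 5 did not pass once tumor 9 was also left out. Without tumors 2 and 9, Slc3a2 passed at r = 0.78 (exact permutation p = 0.0472, 7 mice), as did Nfe2l1, a factor related to NRF2, at r = 0.89 (exact permutation p = 0.00933), although it was at 0.19 without tumor 2 alone (exact permutation p = 0.67). For the others of the 6, r over these 7 mice was 0.67 for Gsto1 (exact permutation p = 0.076), 0.59 for Prdx1, 0.49 for Gss, 0.31 for Me1 and 0.19 for Ugdh (exact permutation p of 0.17 to 0.64). Apart from these, Maff, Mafg, Mafk, Nfe2l1, Mgst1, Txn1, Pgd, Akr1b8, Osgin1 and Fth1 passed over 9 mice, at r of 0.67 to 0.84. Bach1 (r = -0.73), Idh1 (r = -0.84) and Ftl1 (r = -0.88) passed with a negative r without tumor 2, but over 9 mice their r was 0.42, -0.03 and 0.06. Ftl1 still passed without tumors 2 and 9 (r = -0.76, exact permutation p = 0.0377).

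Outside the pathway, the genes whose pattern over the 9 mice was most like that of Nfe2l2 were Arid5a (r = 0.99), Tagln2 (0.98), Pja1 (0.97), Commd7 (0.97) and Slc25a24 (0.97). Those most like Nqo1 were Gtf2h2 (r = 0.97), Gm6180 (0.97), Eogt (0.97), Ptger2 (0.97) and Emb (0.97). The adjusted p of the exact permutation test over all genes was 0.125 for the former and 0.102 to 0.105 for the latter, so none passed. Without the mice farthest from the median of the reference, r was 0.90 to 0.96 for the genes like Nfe2l2 and 0.85 to 0.93 for those like Nqo1. The genes were picked for the highest r over the 9 mice. A high r in most of the same mice is therefore in part given by that choice.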

How the data were processed

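RNA of about 50 mg of tumor was made into stranded poly(A) libraries and sequenced with paired ends. The authors trimmed adapters, aligned to the GRCm38 transcriptome with HISAT and deposited TPM values made with StringTie 2.1.6, 1 column per tumor, and no column was left unused. How transcripts were summed per gene, and the strand setting, are not given in the sources used here. TPM is relative, so a few very abundant genes lower all others, and counting error is unknown. Columns were matched to tumors by the animal and tumor codes in the labels.

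From the TPM, log2(TPM + 1) was computed and averaged per mouse. Contrasts between paired genes were tested by exact sign-flip permutation over 9 mice with Benjamini-Hochberg adjustment over 5. Correlations used exact permutation of pairings, and sister tumors 7920 assignments of the animal labels, both run for each gene with a mean TPM of 1 or more and adjusted over all of them. The tests were tried on simulated data.

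The genes, the 46-gene list and the marker lists (epithelial, macrophage, B lymphocyte, T lymphocyte, erythroid, fibroblast, endothelial, adipocyte and skeletal muscle) were chosen with earlier results of these data known. Named genes are the 10 genes, Slc3a2, the highest, lowest and most variable gene of each role, the 5 most like Nfe2l2 and Nqo1, and the marker genes. Each gene of the 46 past a correlation test over 9 mice or without tumor 2 is named too. Not all those past it only in other settings are. Alternatives were a pseudocount of 0.1, TPM rescaled without mitochondrial genes, a mean TPM minimum of 5 or none, each tumor as a unit (100000 resamples), Spearman's rho, leaving out each mouse, and leaving out the mice of tumors 2 and 9. Locations are from GENCODE vM21 and promoters from RefSeq. The tools were scipy 1.17.1, numpy 2.4.6 and pandas 2.3.3 under Python 3.11.15, with figures from matplotlib 3.10.9.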

Additional observations from a re-analysis of the deposited data

Results flagged for a closer look

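Of 15 values examined over the 9 mice (the 10 genes and the 5 contrasts), 3 had 1 mouse far from the others by Dixon's test at the 95% level. Its nominal rate is about 1 in 20. That rate is no baseline here, because the 15 values share mice and genes and the test was not run over all genes. Of all genes tested, 28.9% were lowest in tumor 2. All 3 flagged values were the lowest, in the mouse of tumor 2. Nfe2l2 was at 4.52 there on the log2(TPM + 1) scale against 6.26 in the next mouse, Txnrd1 at 5.06 against 6.67, and Srxn1 at 0.776 against 4.45. Tumor 2 also held the highest median of the B lymphocyte list and the lowest of the epithelial and macrophage lists, whose part in these values was not tested.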

How the results depend on the processing

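The mean levels moved by less than 1 SD in the 20 values tried (2 alternatives for each of the 10 genes), and the contrasts kept their direction throughout, 63 values staying past the threshold and 2 losing it: Gclc minus Gclm (0.37) and Gsr minus Txnrd1 (-0.71) without the mice of tumors 2 and 9. Leaving out each mouse gave 0.81 to 1.14 for Nfe2l2 minus Keap1, 0.58 to 0.93 for Gclc minus Gclm, -1.07 to -0.69 for Gsr minus Txnrd1, -2.69 to -2.10 for Nqo1 minus Hmox1 and -5.56 to -5.34 for Slc7a11 minus Slc3a2. The count with Nfe2l2 (3) ran from 2 to 4 when each mouse was left out. Without tumors 2 and 9 it held Gclc (r = 0.81, exact permutation p = 0.0381) and Gsr, and Gclm lost its call with r at 0.71 (exact permutation p = 0.0825), while r was -0.51 for Nqo1, -0.19 for Txnrd1 and -0.18 for Slc7a11. The share of all genes passing with Nfe2l2 in that setting was not computed. By Spearman's rho Gclc was at 0.033 and Slc7a11 at -0.033. Leaving out each mouse, r with Nfe2l2 ran from -0.27 to 0.46 for Gclc, -0.41 to 0.76 for Txnrd1 and -0.34 to 0.46 for Slc7a11, with the turns without tumor 2.

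The count with Keap1 (0) was 0 to 1 over the mice left out, 1 being without tumor 2 or 6. It was 2 without tumors 6 and 9, where the share of all genes was not computed. The count with Nqo1 (1) was 2 with a pseudocount of 0.1, 0 by Spearman's rho and 0 without tumors 2 and 9, where r of Gsr was -0.31, and 0 (without tumor 6 or 9) to 3 (without tumors 3 and 4) over the mice left out. Gsr, the gene called over 9 mice, had no call with each tumor as a unit (r = 0.41, permutation p = 0.19) nor without tumor 1, 2, 6, 8 or 9 (r of 0.33 to 0.70). The count with the epithelial list (1) was 0 without tumors 2 and 9, and 0 (without tumor 2) to 4 (without tumor 8) over the mice left out, with 2 without tumor 9. The count with the macrophage list (3) was 0 without tumors 2 and 9, 0 by Spearman's rho, and 0 (without tumor 2) to 3 over the mice left out, with 1 without tumor 8. Hmox1 had r of -0.28 with that list by Spearman's rho and of -0.06 to 0.38 over the mice left out, with -0.059 without tumor 2 and -0.054 without tumor 8. The cause of these changes was not tested. The count of genes alike in sister tumors (3) was 2 without tumor 2, an alternative chosen after seeing the data, and 2 without tumors 2 and 9, and stayed at 3 in the other alternatives tried. All tumors belong to 1 condition, so no pairing of replicates between groups could be made. With 9 mice and unknown depth, a p that misses the threshold does not show that a relation is absent.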
